A study of Homo sapiens with 4 samples.

Results

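Ubiquitin is passed to proteins by a relay of enzymes, and the genes described here encode its first 2 steps, the activating enzymes (E1) and the conjugating enzymes (E2). They were chosen by name: every gene whose annotated symbol began with UBE2, and UBA1, UBA2, UBA3, UBA6 and SAE1 (UBE1 is an older symbol of UBA1). A gene was kept if at least 1 of its probes was detected, at a detection p under 0.01, on 2 or more of the 4 arrays. This gave 29 of the 10239 genes measured, and 28 of them code for protein. The other one, UBE2D3-AS1, is a long noncoding RNA named as antisense to an E2 gene and is no enzyme. The cells were A549, an established line from a human lung adenocarcinoma, grown in serum and studied 24 hours after lipid transfection either with miR-509-3p mimic, a synthetic double of that microRNA, or with a mimic that serves as negative control. There were 2 bead arrays (Illumina) per group. All 4 arrays thus come from transfected cells, and untransfected cells were not analysed here. Whether the 2 arrays of a group stem from separate cultures is not stated in the labels. All p-values therefore rest on the spread between these arrays alone, and that spread may be technical.

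An E1 enzyme activates ubiquitin with ATP and hands it to the active-site cysteine of an E2, and the E2, with a ubiquitin ligase (E3), attaches it to a lysine of the target protein. Each E2 works with its own set of ligases, and the E2 often decides which kind of ubiquitin chain is built, and so whether a protein is degraded or takes part in signalling. Parallel relays with their own E1 and E2 attach the ubiquitin-like proteins SUMO, NEDD8 and ISG15. A microRNA lowers the transcripts it pairs with mainly through its seed, bases 2 to 8, which is why the sequence of the transfected microRNA is shown first, with the seed in capitals:
hsa-miR-509-3p: uGAUUGGUacgucuguggguag
This is the RefSeq mature sequence (GRCh38.p14, 22 bases), which 3 genes on the minus strand of the X chromosome encode alike, MIR509-1 at chrX:147260550-147260571, MIR509-2 at chrX:147258775-147258796 and MIR509-3 at chrX:147259662-147259683. Of the 2370 mature human microRNAs in the same table, 1 carried this seed, miR-509-3p itself. Transcript sequences were not used here, so seed matches in the E2 transcripts were not searched for.

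The median probe signal was 207.1 on each mimic array and 201.6 and 204.6 on the control arrays, and 33.7% to 34.7% of the probes were detected. Across genes, which are not independent replicates, normalized log2 signals correlated at 0.9957 between the mimic arrays and 0.9941 between the control arrays, against 0.9666 to 0.9683 across groups. Of 10 epithelial or A549 markers, 8 were kept, of which MUC1 was higher and CDH1 and KRT7 were lower with the mimic (limma). Of the other marker lists, 2 of 6 leukocyte (CD14, CD68), 2 of 6 fibroblast (COL1A1, THY1) and 1 of 5 endothelial markers (ESAM) were kept. PTPRC, COL1A2 and PECAM1 were among those not kept. Of these 5 kept markers, CD14, CD68 and THY1 were higher, ESAM was lower and COL1A1 did not pass (limma). Their part in the results was not tested. With so few arrays, every value below has limited precision.

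With the miR-509-3p mimic, 8 of the 29 genes were lower and 3 were higher than with the control mimic, and 18 did not pass (limma, adjusted p under 0.05 by Benjamini-Hochberg over all 10239 genes). The 8 that fell were UBE2H, UBE2Q1, UBE2J1, UBE2E1, UBE2J2, UBE2C, UBE2N and SAE1, and the 3 that rose were UBE2B, UBE2L6 and UBE2Z. Over all genes, 16.5% were lower and 18.0% higher, or 34.4% in either direction. The members' shares were 27.6% lower, 10.3% higher and 37.9% in either direction, so the share called was close to the background. The median log2 fold change was -0.11 over the members and 0.04 over all genes. Of the 8 that fell, 4 fell by more than 2-fold, a size reached by 4.06% of all genes in that direction. That count depended on the background correction. Without it, UBE2Q1 gave -0.95 and UBE2J1 -0.86 on the log2 scale, short of 2-fold, while UBE2H gave -1.33 and UBE2E1 -1.01. UBE2L6 and UBE2Z rose by less than 2-fold (1.73% of all genes rose by more), and the rise of UBE2B has only a lower bound. The groups did not overlap on 24 of the 29 genes, or 82.8%, against 72.9% of all genes. Of these, 15 were lower with the mimic, where 32.8% of all genes were, and 9 were higher, where 40.1% of all genes were. Among the 22 ubiquitin E2 genes, 7 fell, 2 rose and 13 did not pass.

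These counts depended on single arrays. Fewer members passed when any 1 array was left out, and fewer of all genes did too. In those fits the median log2 fold change of the members was between -0.18 and -0.09, and that of all genes between 0.03 and 0.05. With arrays scaled to one median in place of quantile normalization, 6 members were lower and 1 higher, beside 16.2% and 12.8% of all genes.

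**Figure D1:**
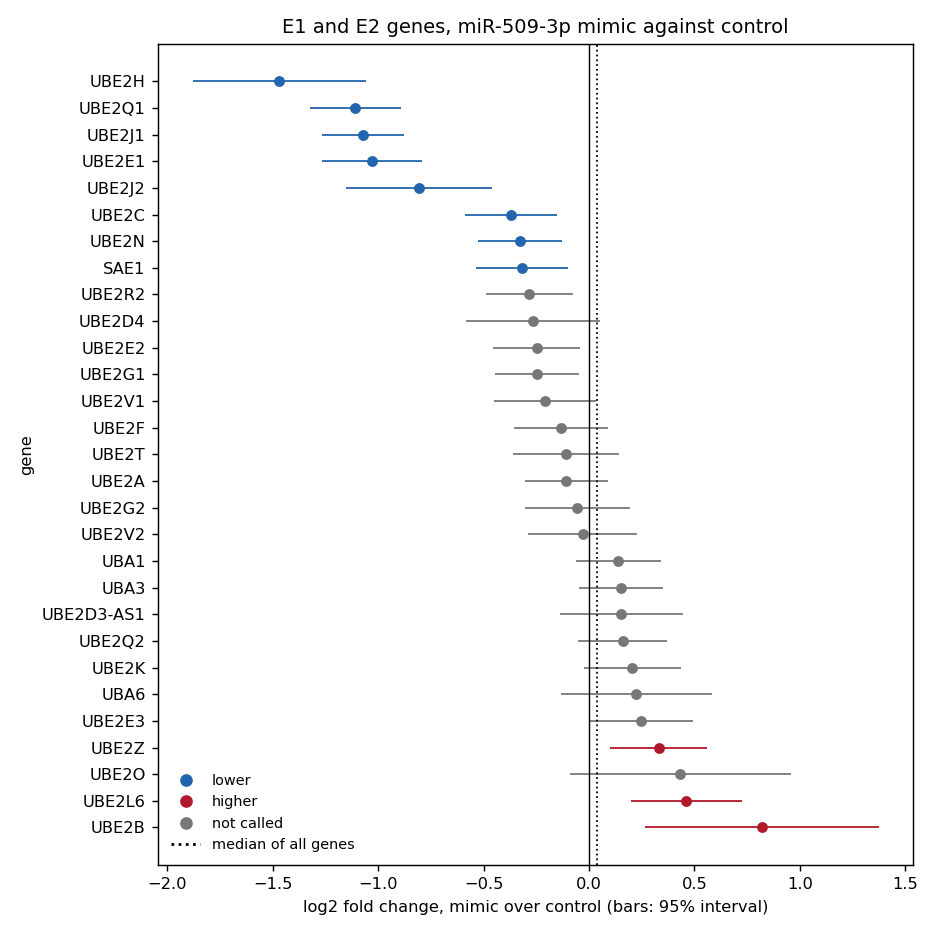
Log2 fold change (mimic over control, horizontal axis) of each of the 29 E1 and E2 genes, with its 95% interval from the limma fit on 2 arrays per group. Blue points passed as lower, red points as higher and grey points did not pass; the dotted line marks the median of all genes, 0.04, the falls reach -1.47, and the point of UBE2B is a fitted value for a rise that has only a lower bound.

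**Figure D2:**
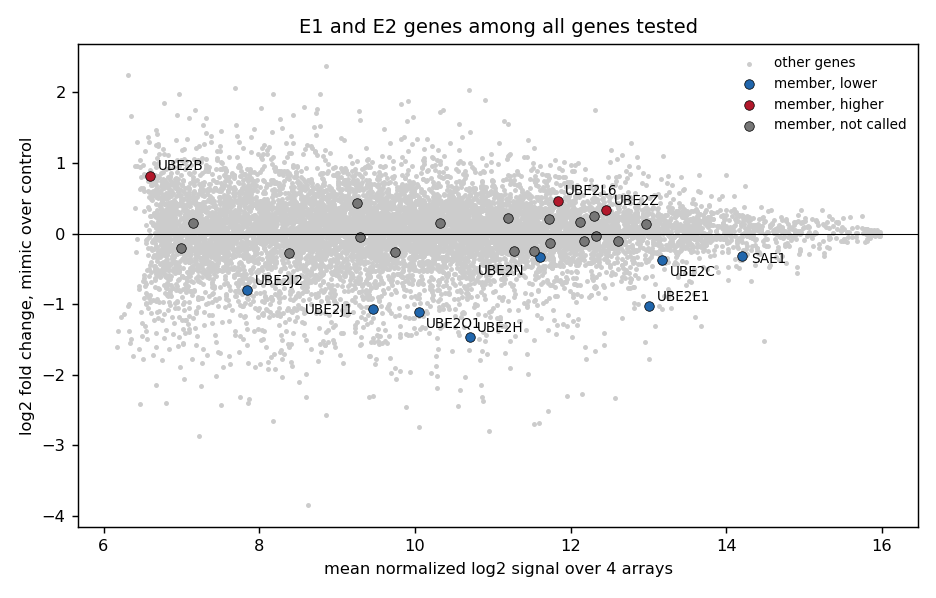
Log2 fold change (mimic over control) against the mean normalized log2 signal over the 4 arrays for all 10239 genes, with the 29 E1 and E2 genes on top. The members lie inside the cloud of other genes, and the 11 that passed are named.

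UBE2H works with the CTLH ligase, a large RING complex known from red cell maturation. Its normalized log2 signal was 9.91 and 10.05 on the mimic arrays, against 11.64 and 11.25 on the control arrays. Both mimic arrays lay well below both control arrays, and the control arrays differed from each other more than the mimic arrays did. The mean was 9.98 ± 0.10 with the mimic and 11.44 ± 0.27 with the control (SD, n = 2 each), a log2 fold change of -1.47 ± 0.15 (estimate ± SE), which is 2.77-fold lower (limma adjusted p = 0.00556). A further kept probe of UBE2H read 9.09 and 9.19 with the mimic, against 9.81 and 9.80 with the control. It also passed, at a smaller log2 fold change of -0.66 ± 0.08 (limma adjusted p = 0.00846 over all 16561 kept probes, of which 29.7% passed). The mean of both probes gave -1.07. Without mimic array 1 the brighter probe gave -1.40 and no longer passed (limma adjusted p = 0.0517).

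UBE2E1 belongs to a family of broadly acting E2 enzymes that work with many RING ligases. Its brighter probe read 12.50 on both mimic arrays, against 13.60 and 13.45 on the control arrays, and the groups did not overlap. The log2 fold change was -1.03 ± 0.09, or 2.04-fold lower (limma adjusted p = 0.00391). The further kept probe, named by a different UBE2E1 transcript, read 6.46 and 6.66 with the mimic, against 8.63 on both control arrays. With the mimic it was undetected on both arrays, so its fall has only a bound, at least 3.69-fold lower, which was not tested. The limma adjusted p of 0.00239 over probes belongs to the fitted log2 fold change of -2.07. This probe was kept only through the control arrays, on which it was higher, and so adds no support to the fall of the brighter probe.

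The relatives of UBE2E1 did not pass as processed here. In some other settings UBE2E2 passed as lower, such as without background correction (limma adjusted p = 0.0378). UBE2E3 passed as higher with a trended, robust variance (limma adjusted p = 0.0185). UBE2E2, which like UBE2E3 is a close homologue, read 11.11 and 11.19 with the mimic, against 11.39 and 11.40 with the control (log2 fold change -0.25, limma adjusted p = 0.0708). UBE2E3 read 12.48 and 12.36 with the mimic, against 12.11 and 12.24 with the control, with a log2 fold change of 0.25 (limma adjusted p = 0.109), and its further kept probe gave 0.36. UBE2D4, of the related UBE2D family of chain-starting E2 enzymes, had a log2 fold change of -0.27 (limma adjusted p = 0.152). In these 3 genes the arrays of the groups did not overlap, which was also so for 72.9% of all genes. Whether UBE2E1 differs from its relatives was not tested, and transcripts of such close homologues can hybridise to one another's probes.

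UBE2J1 and UBE2J2 are anchored in the membrane of the endoplasmic reticulum, where they serve the removal and degradation of misfolded proteins (ERAD). UBE2J1 read 8.93 on both mimic arrays, against 9.99 and 10.01 on the control arrays. The arrays of each group nearly coincided, and the fall was -1.07 ± 0.07 on the log2 scale, or 2.10-fold (limma adjusted p = 0.00280). UBE2J2 read 7.31 and 7.58 with the mimic, against 8.34 and 8.17 with the control, a log2 fold change of -0.81 ± 0.13 (limma adjusted p = 0.0142). Its further kept probe, at 6.80 and 6.92 with the mimic and 7.03 and 7.09 with the control, gave only -0.20 and did not pass (limma adjusted p = 0.151 over probes). The size of the UBE2J2 fall also moved with the processing, to -0.47 without background correction and -0.50 as the mean of both probes. Its call was lost without mimic array 1, at -0.67 (limma adjusted p = 0.0690), and without control array 1, at -0.72 (limma adjusted p = 0.0560). UBE2G2, the E2 of the ERAD ligase gp78, was at 9.30 and 9.25 with the mimic, inside the range of 9.41 and 9.24 with the control, and did not pass (log2 fold change -0.05, 95% interval -0.30 to 0.20).

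The 250 bases before the start of UBE2J1 are shown because UBE2J1 fell and because the unfolded protein response acts on ERAD genes through short promoter motifs (RefSeq, GRCh38.p14, minus strand, chr6:89352723-89352972, with the match in capitals):
UBE2J1: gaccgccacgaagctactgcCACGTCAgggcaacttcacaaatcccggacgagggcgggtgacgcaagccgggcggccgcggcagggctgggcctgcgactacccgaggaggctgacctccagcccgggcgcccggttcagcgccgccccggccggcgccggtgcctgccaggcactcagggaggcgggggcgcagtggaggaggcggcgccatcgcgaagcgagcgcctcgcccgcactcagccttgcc
The motif searched was TGACGTG, the core of the element bound by XBP1, on both strands, and it occurred here once as its complement CACGTCA. In windows from 250 bases before to 50 after each start, it was found in 1.97% of all 35116 windows and in 2 of 31 windows of the 23 members that had one. Those 2 windows belong to UBE2J1 and UBE2O. The motif was chosen after the values were seen, and a match is no evidence of binding. Whether the motif bears on the fall of UBE2J1 was not tested.

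UBE2Q1 is a large E2 with a long amino-terminal extension. It read 9.46 and 9.53 on the mimic arrays, against 10.56 and 10.64 on the control arrays. The groups lay far apart compared with the spread within either, and the log2 fold change of -1.11 ± 0.08 is 2.16-fold lower (limma adjusted p = 0.00303). Its relative UBE2Q2 read 12.16 and 12.24 with the mimic, against 12.01 and 12.07 with the control, and did not pass (log2 fold change 0.16, 95% interval -0.05 to 0.37).

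The remaining falls were small. UBE2C starts ubiquitin chains on the substrates of the anaphase-promoting complex, the ligase that drives exit from mitosis, and read 13.00 and 12.99 with the mimic, against 13.31 and 13.42 with the control (log2 fold change -0.37 ± 0.08, 1.29-fold lower). UBE2N builds, with the inactive E2 variants UBE2V1 and UBE2V2, the ubiquitin chains used in signalling and DNA damage tolerance. It read 11.43 and 11.45 with the mimic, against 11.79 and 11.74 with the control (log2 fold change -0.33 ± 0.07). SAE1, a subunit of the E1 for SUMO, read 14.05 on both mimic arrays, against 14.31 and 14.42 on the control arrays (log2 fold change -0.32 ± 0.08). The limma adjusted p-values of these 3 genes were 0.0307, 0.0335 and 0.0441, near the threshold, and each lost its call when any 1 of the 4 arrays was left out. Each call was also lost with no filter on dim probes and with the replicate block. The groups did not overlap in any of these 3 genes.

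UBE2V1 and UBE2V2, the partners of UBE2N, did not pass. The UBE2V1 probe with the highest signal read 6.93 and 6.87 with the mimic, against 7.03 and 7.18 with the control, a log2 fold change of -0.21 (limma adjusted p = 0.144). A further probe, detected on 3 arrays, pointed the other way, with 7.19 and 7.04 with the mimic, against 6.88 and 6.67 with the control (log2 fold change 0.34, limma adjusted p = 0.0930 over probes). Both lie near background, so these data give no direction for UBE2V1. UBE2V2 read 12.22 and 12.40 with the mimic, against 12.37 and 12.31 with the control, and the groups overlapped (log2 fold change -0.03, 95% interval -0.29 to 0.23).

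**Figure D3:**
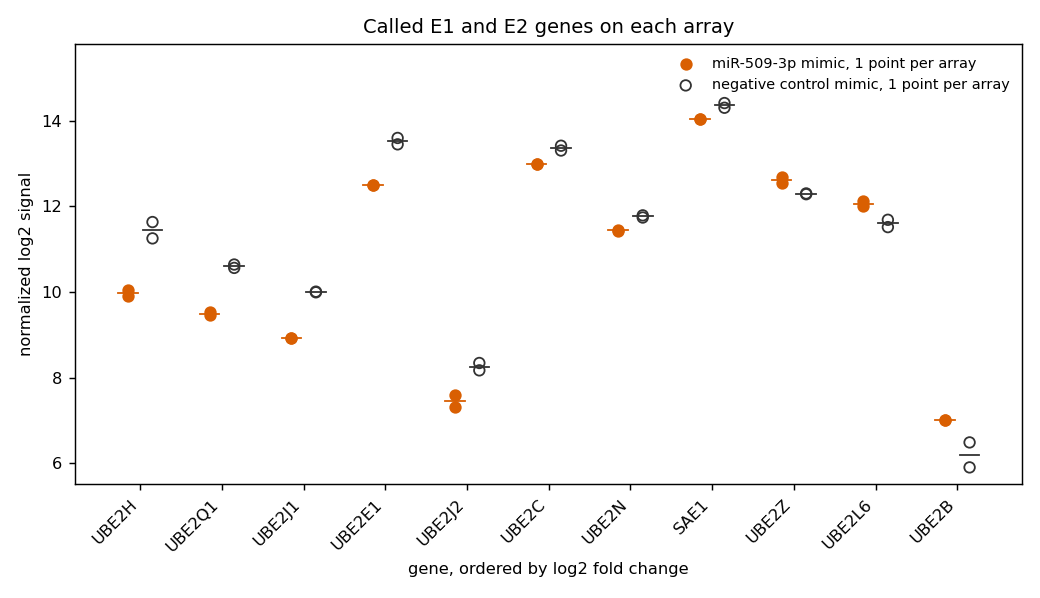
Normalized log2 signal (vertical axis) of the 11 E1 and E2 genes that passed, on each mimic array (filled) and each control array (open), with a line at each group's mean. The arrays of the groups do not overlap for any of the 11 genes, and the gaps are wide for UBE2H, UBE2Q1, UBE2J1, UBE2E1 and UBE2J2 and narrow for UBE2C, UBE2N, SAE1 and UBE2Z. Levels are not comparable between genes, since each probe has its own brightness.

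Of the genes that rose, UBE2L6 encodes the E2 for ISG15, the interferon-induced ubiquitin-like protein, and is itself an interferon-induced gene. It read 12.12 and 12.01 on the mimic arrays, against 11.52 and 11.69 on the control arrays. Both mimic arrays were above both control arrays, and the log2 fold change was 0.46 ± 0.10, or 1.38-fold higher (limma adjusted p = 0.0281). A further kept probe read 7.29 and 7.03 with the mimic, against 6.96 and 7.11 with the control. Its groups overlapped and it did not pass (log2 fold change 0.13, limma adjusted p = 0.488 over probes).

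UBE2Z takes ubiquitin and the ubiquitin-like protein FAT10 from the E1 enzyme UBA6. It read 12.70 and 12.56 with the mimic, against 12.29 and 12.30 with the control (log2 fold change 0.33 ± 0.09, limma adjusted p = 0.0458). Adjusted over probes instead of genes, this probe did not pass (limma adjusted p = 0.0507). Of its 2 further kept probes, one read 9.78 and 9.83 with the mimic, against 9.48 and 9.36 with the control, and passed at 0.39 ± 0.08 (limma adjusted p = 0.0327 over probes). The other, near background and detected on 1 array of each group, read 6.65 and 6.86 with the mimic, against 6.44 and 7.16 with the control, and gave -0.05 ± 0.26. The call of UBE2Z was lost when any 1 array was left out, and that of UBE2L6 without either mimic array or control array 1. Both calls were also lost with median scaling, with no filter on dim probes, with the replicate block and with the mean of the gene's kept probes. UBA6, which supplies UBE2Z, read 11.17 and 11.46 with the mimic, against 11.18 and 11.00 with the control. Its groups overlapped and it did not pass (log2 fold change 0.22, limma adjusted p = 0.256).

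UBE2B and UBE2A are the human counterparts of yeast RAD6, which marks histone H2B and the replication clamp PCNA with ubiquitin. UBE2B was read by 1 probe near background, at 7.02 and 7.00 on the mimic arrays, against 6.48 and 5.90 on the control arrays. It was detected on both mimic arrays and on neither control array, so it entered the comparison only through the group in which it was higher. Its rise with the mimic was at least 1.17-fold, a bound that was not tested. The limma adjusted p of 0.0427 belongs to the fitted log2 fold change of 0.82, which uses the undetected control values. That fitted value was 1.11 without control array 1 and 0.53 without control array 2. The call of UBE2B was lost without either mimic array and with no filter on dim probes. UBE2A read 12.57 and 12.55 with the mimic, against 12.65 and 12.68 with the control, and did not pass (log2 fold change -0.11, 95% interval -0.30 to 0.09).

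The other genes did not pass, and their log2 fold changes lay between -0.28 and 0.43. UBE2R2 and UBE2G1, which extend chains on substrates of cullin ligases, were closest to the threshold. UBE2R2 read 8.23 and 8.26 with the mimic, against 8.49 and 8.56 with the control (log2 fold change -0.28, limma adjusted p = 0.0507). UBE2G1 read 11.42 and 11.40 with the mimic, against 11.63 and 11.68 with the control (log2 fold change -0.25, limma adjusted p = 0.0669), while its further kept probe gave -0.06. Each passed in some of the other settings, UBE2R2 when a gene had to be detected on all 4 arrays and UBE2G1 without background correction.

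UBE2O, a large enzyme that joins E2 and E3 activities, had the widest value among those that did not pass, at 9.50 and 9.44 with the mimic, against 9.31 and 8.76 with the control. Its log2 fold change of 0.43 had a 95% interval of -0.09 to 0.96, wide because the control arrays differed. UBE2K, which builds chains that mark proteins for degradation, had a log2 fold change of 0.21 (95% interval -0.03 to 0.44). UBE2T, the E2 of the Fanconi anaemia pathway of crosslink repair, had -0.11 (95% interval -0.36 to 0.14) and its groups overlapped.

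Among the E1 enzymes, UBA1, which activates most cellular ubiquitin, read 13.08 and 13.02 with the mimic, against 12.91 and 12.90 with the control. Its log2 fold change was 0.14 (95% interval -0.06 to 0.34), and its further kept probe gave 0.05. In the NEDD8 relay, UBA3, a subunit of the E1, read 10.42 and 10.38 with the mimic, against 10.23 and 10.27 with the control (log2 fold change 0.15, 95% interval -0.05 to 0.35). UBE2F, an E2 of NEDD8, read 11.63 and 11.70 with the mimic, against 11.75 and 11.85 with the control (log2 fold change -0.13, 95% interval -0.35 to 0.09). The noncoding UBE2D3-AS1 had a log2 fold change of 0.15 with overlapping groups.

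A further 7 matching genes had a named probe and were not kept, UBE2S, UBE2U, UBE2MP1, UBE2NL, UBE2DNL, UBE2Q2P1 and UBE2Q2P2. UBE2S extends the chains that UBE2C starts, and its 1 probe was detected on none of the arrays, with log2 signals of 5.61 to 6.04. An undetected probe does not show that the transcript was absent. At the edge of the filter, UBE2B was detected on 2 arrays and kept, and UBE2MP1, a pseudogene, was detected on 1 and left out. The other 5 were detected on none. UBA2, UBE2D1, UBE2D2, UBE2D3, UBE2L3, UBE2L5, UBE2M, UBE2QL1, UBE2V1P16 and UBE2W were not analysed here.

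**Figure D4:**
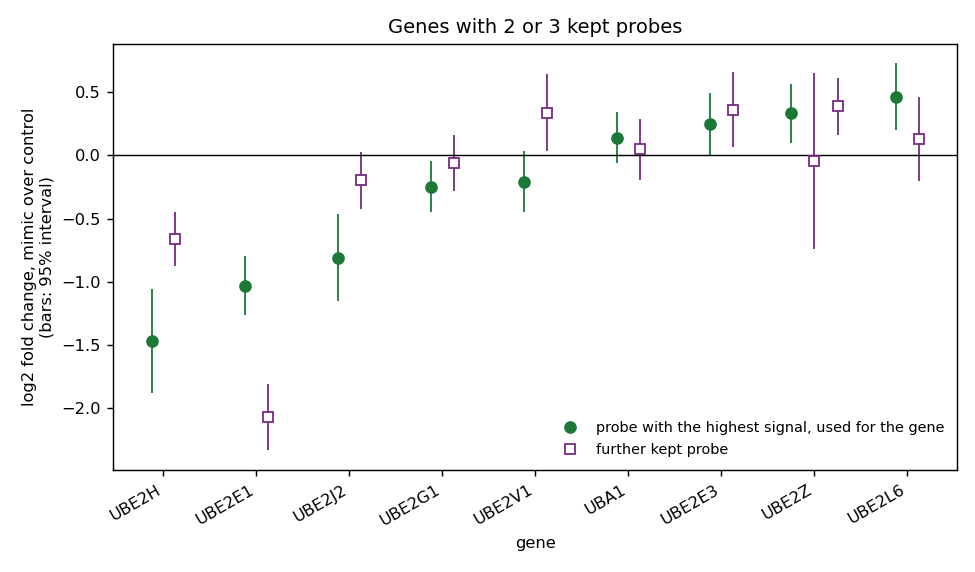
Log2 fold change (mimic over control) with its 95% interval for every kept probe of the 9 genes with more than 1, the probe with the highest signal as a filled circle and further probes as open squares. Adjusted over probes, both probes of UBE2H passed as lower, UBE2J2, UBE2L6 and UBE2Z passed by 1 probe only, and the probes of UBE2V1 and of UBE2Z lie on both sides of 0. The further probe of UBE2E1, undetected with the mimic, is drawn at its fitted value.

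The genes around these enzymes were described from lists chosen with earlier results of these data known. Of the 14 measured ubiquitin-like modifiers and ubiquitin genes, 3 fell (21.4%), 11 did not pass and 0 rose, beside 16.5% and 18.0% of all genes that fell and rose. In this list 1 gene was higher at an unadjusted limma p under 0.05. The median log2 fold change was -0.04 against 0.04 over all genes. SUMO3, a SUMO protein, read 10.90 and 11.12 with the mimic, against 13.28 and 13.29 with the control, a log2 fold change of -2.28 ± 0.10, or 4.84-fold lower (limma adjusted p = 0.00226). MAP1LC3B and GABARAPL2, ubiquitin-like proteins of autophagosomes, fell by 1.42 ± 0.08 and 0.68 ± 0.07 on the log2 scale. The further kept probe of GABARAPL2, at -0.43 ± 0.22, did not pass. The call of GABARAPL2 was lost without mimic array 1 (limma adjusted p = 0.0542).

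Of 14 SUMO ligases and proteases measured, 3 rose (21.4%), 2 fell (14.3%) and 9 did not pass (median log2 fold change 0.23). The shares over all genes were 18.0% and 16.5%. NSMCE2, a SUMO ligase of the SMC5/6 complex, read 7.59 and 7.38 with the mimic, against 9.33 and 9.40 with the control (log2 fold change -1.88 ± 0.11). DESI2 fell by 0.96 ± 0.08 on the log2 scale, and the SUMO ligase gene ZNF451 rose by 0.97 ± 0.14. The further kept probe of ZNF451 also passed as higher, at 0.75 ± 0.14. The 3 rises were lost when either mimic array was left out, while both falls kept their calls.

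Of 18 neddylation genes, 4 rose (22.2%), 1 fell (5.56%) and 13 did not pass (median log2 fold change 0.19). Among all genes, 18.0% rose and 16.5% fell. DCUN1D1, which helps the NEDD8 E2 enzymes load cullins, read 8.04 and 8.08 with the mimic, against 9.65 and 9.52 with the control (log2 fold change -1.52 ± 0.09). Its relative DCUN1D3 moved the other way, reading 10.01 and 9.95 with the mimic, against 8.79 and 8.74 with the control (log2 fold change 1.21 ± 0.08). SENP8, the NEDD8 protease, is among the 4 rises but was undetected on both control arrays and so entered only through the mimic arrays, with a level at least 1.48-fold higher. Without mimic array 1 the list had 2 rises, and without mimic array 2 it had 1.

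Of 18 ERAD genes, 8 rose, 2 fell and 8 did not pass (median log2 fold change 0.14), beside the 18.0% and 16.5% of all genes that rose and fell. SEL1L and ERLEC1, which serve the HRD1 ligase of ERAD, rose by 0.57 ± 0.11 and 0.57 ± 0.08 on the log2 scale. DERL2, a channel component of ERAD, fell by 0.64 ± 0.08, and its further kept probe had a wider log2 fold change of -1.97 ± 0.11. All calls in this list were lost without either mimic array, and leaving out either control array left 4 rises and 1 fall. With median scaling there were 5 rises and 1 fall.

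Of 14 genes of the anaphase-promoting complex, 4 fell (28.6%), 2 rose (14.3%) and 8 did not pass (median log2 fold change 0.08). The shares over all genes were 16.5% and 18.0%. ANAPC10, a subunit that helps bind substrates, fell by 0.90 ± 0.08 on the log2 scale and CDC20, its mitotic activator, by 0.43 ± 0.08, while the subunit gene CDC26 rose by 0.54 ± 0.07. With median scaling 2 fell and 1 rose. Leaving out any 1 array left 1 fall. The rises were lost without either mimic array and numbered 1 without control array 1 and 2 without control array 2.

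Of 14 genes of the ligases that recruit UBE2A, UBE2B, UBE2N or UBE2T, or of their pathways, 2 fell, 2 rose and 10 did not pass. The share in each direction was 14.3%, beside 16.5% of all genes that fell and 18.0% that rose (median log2 fold change of the list 0.02). FANCL, the ligase that works with UBE2T, read 9.44 and 9.29 with the mimic, against 10.61 and 10.54 with the control (log2 fold change -1.20 ± 0.09). RNF40, a subunit of the ligase that works with UBE2A and UBE2B on histone H2B, fell by 0.89 ± 0.11 on the log2 scale, and HLTF, a ligase of damage tolerance, rose by 0.63 ± 0.10. The further kept probe of HLTF also passed as higher, at 0.84 ± 0.07. Leaving out either mimic array left 1 fall and leaving out either control array left 2, and a rise was left only without mimic array 2, where there was 1.

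Of 32 HECT and RBR ligases, which receive ubiquitin from an E2 on a cysteine of their own, 11 rose, 2 fell and 19 did not pass (median log2 fold change 0.09), again beside 18.0% and 16.5% of all genes. WWP2 read 9.32 and 9.24 with the mimic, against 8.06 and 8.07 with the control (log2 fold change 1.21 ± 0.08). RNF19A rose by 1.03 ± 0.11 on the log2 scale, though its further kept probe, at 0.61 ± 0.18, did not pass. HERC3 is among the 11 rises but was undetected on both control arrays and so entered only through the mimic arrays, with a level at least 1.12-fold higher. The rises numbered 1 without mimic array 1, 2 without mimic array 2 and 5 without either control array, and 7 with median scaling or with the replicate block. The falls were lost when any 1 array was left out and with the replicate block, and 1 was left with median scaling.

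Of 10 other E1 and E2 enzymes measured, outside the naming rule, 3 rose (30%), 1 fell (10%) and 6 did not pass. Among all genes, 18.0% rose and 16.5% fell. The median log2 fold change of the list was 0.02. BIRC6, a giant E2 that restrains cell death, rose by 0.70 ± 0.12 on the log2 scale and AKTIP, an inactive E2 variant, by 0.49 ± 0.08. The further kept probe of AKTIP also passed as higher, at 0.45 ± 0.08. ATG7, the E1 of autophagy, fell by 0.58 ± 0.10. All 4 calls were lost without either mimic array, the fall was lost when any 1 array was left out, and 2 rises were left without control array 1 and 1 without control array 2.

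**Figure D5:**
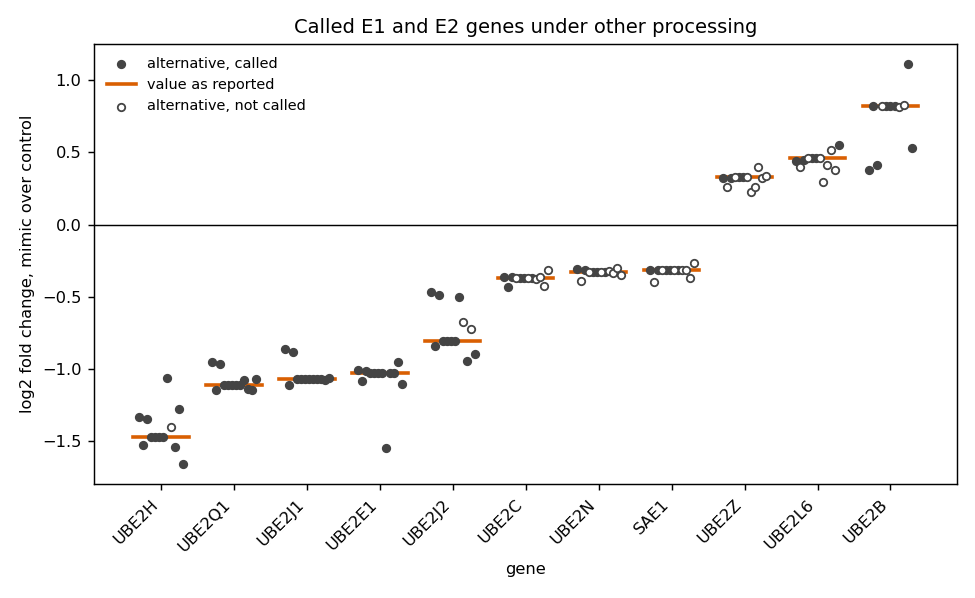
Log2 fold change (mimic over control) of the 11 E1 and E2 genes that passed, as reported (line) and under each of up to 12 other settings (points, filled where the gene passed at an adjusted p under 0.05). The lowest point of UBE2E1 is the mean with its probe that was undetected with the mimic. No point crosses 0, all points of UBE2Q1, UBE2J1 and UBE2E1 are filled, and those of UBE2C, UBE2N, SAE1, UBE2Z and UBE2L6 are filled in 4 to 6 settings.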

How the data were processed

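The labels' protocols describe total RNA, amplified to biotinylated cRNA. The authors deposited, per probe, a signal intensity (linear, unnormalized) and a detection p-value; GenomeStudio 2009.2 is named in the submitters' processing notes. The authors also deposited log2 values for 19069 of 47320 probes, by steps not stated in the labels. Unused columns of sample values numbered 0.

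Background correction (normexp with detection p-values, offset 16), quantile normalization and log2 followed limma 3.58.1's neqc (R 4.3.3). Kept probes numbered 16561, each with a detection p under 0.01 on 2 or more arrays. Of all probes, 30113 had 1 gene in the platform annotation, 8 had several and 17199 none; 30092 could be updated to current symbols (GRCh38.p14). The kept probe with the highest mean stood for its gene. The spread was moderated over all kept probes (lmFit and eBayes; 2 residual and 2.48 prior degrees of freedom) and p-values were adjusted over genes (Benjamini-Hochberg). Where a probe was undetected on every array of 1 group, the fold is a bound: the other group's mean over the dim group's mean of the higher of the probe's value and the array's lowest detected signal.

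The members and lists were chosen with earlier results of these data known. Members that passed, or whose probes differ in sign, are given by array, the others by value or range, and each list by up to 3 called genes with the widest change. Other settings of the background, scaling, filter, probes, variance model and replicate block were tried. Figures were drawn with matplotlib 3.10.9.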

Additional observations from a re-analysis of the deposited data

How the results depend on the processing

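No member changed direction with a call under any of the 12 planned settings, and the calls of UBE2E1, UBE2J1 and UBE2Q1 passed in all of them. Of the 131 values of the 11 called members, 41 no longer passed, and of the 216 values of the other 18, 11 passed. Against 8 lower and 3 higher members, the counts were 5 and 0 with no filter on dim probes (3 higher at an unadjusted limma p under 0.05), 5 and 1 with the replicate block and 6 and 1 with median scaling. They were 9 and 1 with the mean of a gene's kept probes and 10 and 5 with a trended, robust variance. Leaving out 1 array gave 3 to 5 lower and 0 to 2 higher members. Over all genes, 1685 were lower and 1839 higher, with 961 and 768 without the filter, 607 to 1089 and 310 to 1140 without 1 array, and 1328 and 1306 with the replicate block. Same-numbered arrays share only a number in the labels, and their deviations from the group means correlated at -0.06 across genes. Moderating the spread over the genes' probes alone, a choice made after seeing the data, gave 10 lower and 3 higher members. Of 286 values of the 24 named list genes, 43 no longer passed and 0 changed sign. A fit that leaves out an array assumes that the lone array varies like the other group's. Probes near background, such as those of UBE2B, UBE2V1 and UBE2J2, limit the size of their changes: UBE2B gave 0.38 without background correction and 0.41 with the authors' values. Brighter probes shrank too in these 2 settings, UBE2J1 to -0.86 and -0.88 and UBE2Q1 to -0.95 and -0.97.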
